A study of Chelon labrosus with 24 samples.

Results

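Of 638 probes for 166 gene names on a custom mullet array, 9 probes under 3 names stand for genes of adaptive immunity. MHC_II has 4 probes, Mhc2 has 1 and Liza_aurata_immunoglobulin, named after the golden grey mullet, has 4. They were taken by name, as every probe whose gene name starts with MHC or contains immunoglobulin in either case. The rule holds no measured value, but it was chosen with earlier results of these data known. The livers came from immature thicklip grey mullets (Chelon labrosus) caged in the inner or the outer part of Pasaia harbour and taken at a first or a second sampling. Each of the 4 combinations of site and sampling holds 6 fish, and each fish has 1 array. The first sampling is day 5 in the labels and 3 days of exposure in the series text, and the second is day 21 and 15 days. All fish share the caging, and fish from outside the harbour or from before caging were not analysed here. A site was sampled through its own cages, so cage and site cannot be told apart. The labels number the liver samples without naming separate animals or tanks. They are called fish here, with the number the label gives, and a p-value refers to the spread between such samples.

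MHC class II molecules are pairs of an alpha and a beta chain on dendritic cells, macrophages and B cells, where they hold peptides from outside the cell for helper T cells to read. Class II genes are among the most variable between individuals of a vertebrate species, fish included. Immunoglobulins are the antigen receptors and antibodies of B cells and plasma cells. Their variable part is put together in each B cell by joining gene segments, so that the stretch around the join differs from clone to clone. In bony fish these cells reside mainly in head kidney and spleen, and the liver holds them in its blood and as scattered resident cells. The array files name no chain for MHC_II or Mhc2 and no class for the immunoglobulin.

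The 55-base probe sequences are shown because the probes of a name overlap, and where they overlap decides what their values can say. They are given 5′ to 3′ as the deposited scanner files hold them. The files give no genome position for them, so no coordinates are printed. The 4 immunoglobulin probes tile a stretch of 100 bases, and capitals mark the 10 bases that all 4 share.
Immunoglobulin probe 24: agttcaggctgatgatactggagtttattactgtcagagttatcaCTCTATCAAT
Immunoglobulin probe 23: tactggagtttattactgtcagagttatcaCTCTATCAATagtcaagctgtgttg
Immunoglobulin probe 22: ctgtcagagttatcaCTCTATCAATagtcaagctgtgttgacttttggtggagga
Immunoglobulin probe 21: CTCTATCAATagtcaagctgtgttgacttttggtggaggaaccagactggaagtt
Probe 24 starts at base 1 of that stretch, probe 23 at base 16, probe 22 at base 31 and probe 21 at base 46. The letters TATTACTGT, of a kind found where variable segments of light chains end, lie in probes 24 and 23. The letters TTTGGTGGA, of a kind found where joining segments begin, lie in probes 22 and 21. Each run of letters, searched on both strands, was in 2 of the 638 probes (0.313%), and the runs do not overlap. A match of letters is a description of the probe and not of its transcript.

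The 4 MHC_II probes lie almost on top of each other, within 59 bases. Capitals mark the bases outside the 51 that all 4 share.
MHC_II probe 428: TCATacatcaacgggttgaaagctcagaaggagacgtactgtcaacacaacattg
MHC_II probe 427: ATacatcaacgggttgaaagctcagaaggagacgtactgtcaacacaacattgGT
MHC_II probe 426: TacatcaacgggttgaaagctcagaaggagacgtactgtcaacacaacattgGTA
MHC_II probe 425: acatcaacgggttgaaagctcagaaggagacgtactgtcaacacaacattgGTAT
They read nearly the same bases and are not independent measurements. Mhc2 is read by another probe, with no run of more than 6 bases in common with MHC_II on either strand.
Mhc2 probe 9: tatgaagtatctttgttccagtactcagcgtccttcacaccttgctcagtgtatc
Probe 9 starts with TATGA, which reads TCATA on the opposite strand, and MHC_II probe 428 starts with the same letters TCATA. Whether probe 9 is written on the strand of the other probes was not tested. Nor was it tested whether Mhc2 and MHC_II stand for separate transcripts or for neighbouring parts of 1. The longest run that any of the 9 probes shared with a probe of another gene was 12 bases, between MHC_II and gelatinase.

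Between 371 and 484 probes per array were well above background, also called detected here, meaning that at least 50% of a probe's spots, outlier spots left out, carried the scanner software's flag for it. No spot was saturated. A level below is the log2 signal minus the array's 75th percentile, so that levels far under 0 are dim probes, and a signal is in scanner units before that scaling. The labelled tissue was checked with 8 hepatocyte genes (such as transferrin, haptoglobin and fibrinogen), and all 8 were detected on all 24 arrays. Trypsin, a marker of the pancreatic tissue that lies in many fish livers, was also detected on 24 arrays, at levels from -4.34 to 2.85 (inner, first), -3.69 to 1.23 (outer, first), -3.46 to 4.78 (inner, second) and -2.74 to 3.97 (outer, second). The array carries no gene of the blood or muscle lists, and RAG1, which cuts DNA when lymphocytes join their receptor segments, is the single other lymphocyte gene. Every group has 2 arrays on each of 3 slides. On all slides the fish of one sampling fill array row 1 and those of the other fill array row 2, so that array row and time cannot be told apart.

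Probe 425 of MHC_II, which had the highest mean level of its 4, was either near the floor of the array or clearly above it. It was detected in 15 of 24 fish. Its signals ran from 30.9 to 990.5 in those 15 and from 1.21 to 2.54 in the other 9. At the first sampling the inner harbour fish 2, 3, 4, 5 and 7 had signals of 1.21, 1.5, 2.0, 1.6 and 1.85, and fish 8 had 101. The outer harbour fish 1, 2, 3, 4, 5 and 8 had 30.9, 101, 157, 990.5, 187 and 121.5. The gene was detected in 1 inner and in all 6 outer fish, and inner fish 8 lay inside the outer range. In the inner group 79.2% of the spots of this probe held a substitute value that the scanner software gives to its dimmest spots, against 0% in the outer group. A difference of mean levels that includes this inner group is therefore sized by the floor in 5 of its 6 fish, and it is given below only with its test and not as a fold of the transcript.

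At the second sampling both sites were mixed. The inner harbour fish 1, 3, 5 and 7 had signals of 43.5, 249, 845 and 695, while fish 2 and 4 had 1.89 and 1.59. The outer harbour fish 2, 3, 4 and 5 had 99.0, 173, 52.9 and 273, while fish 6 and 7 had 2.54 and 1.45. Detection was 4 of 6 at each site, and the groups overlapped over nearly their whole range. The spread between fish of a group was the widest among the tested probes. The 4 MHC_II probes ranked 1 to 4 of 476 tested probes by the SD within groups (2.90 to 3.08 log2 units, against a median of 0.43 over all tested probes). These SDs include the fish at the floor, so their size depends on where the floor lies. The spots of a probe on 1 array differed far less, with a median SD of 0.07 log2 units over the detected MHC_II probes. Fewer cells that carry class II and less RNA per cell cannot be told apart in whole liver. A low level and a transcript whose bases differ under the probe cannot be told apart either, since the sequences of the fish were not analysed here.

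**Figure D1:**
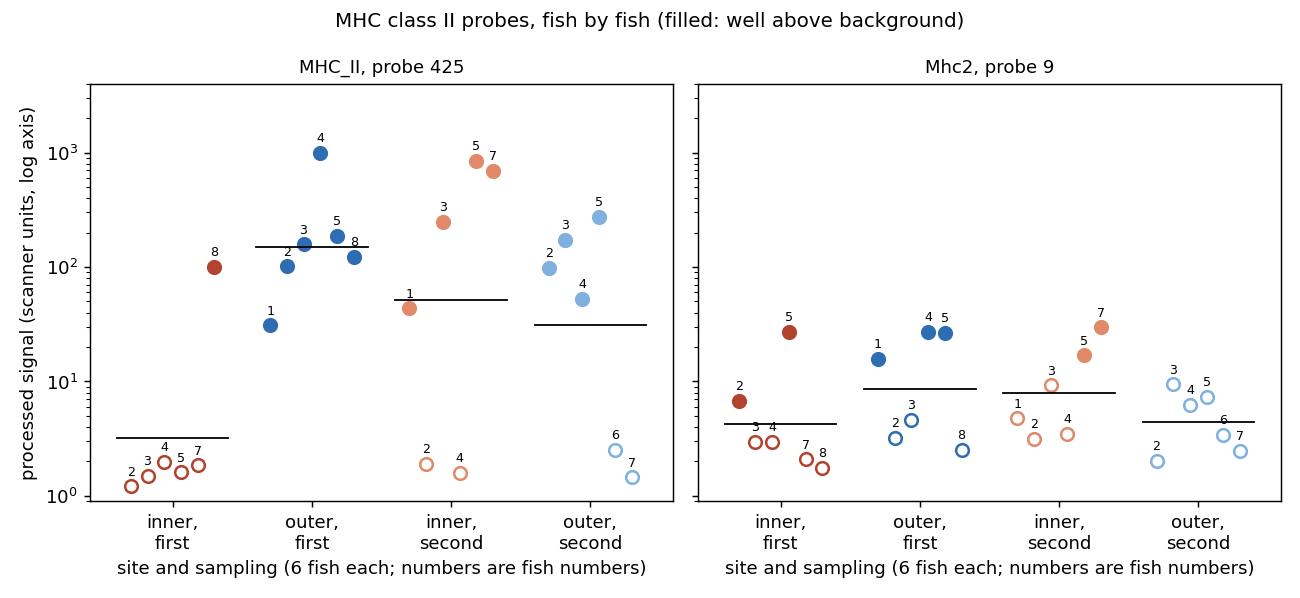
Processed signal (scanner units, log axis) of MHC_II probe 425 and Mhc2 probe 9 in each of 6 fish per site and sampling, with fish numbers; filled points are well above background and bars are means of the log signals. MHC_II points lie either from 1.21 to 2.54 or from 30.9 to 990.5, and inner fish at the first sampling have 1 filled point against 6 in outer fish.

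The 15 arrays with MHC_II detected had 371 to 482 probes above background in all, and the 9 without it had 433 to 484. Each slide held 5 of the former and 3 of the latter. RAG1 lay between -6.51 and -5.39 (inner, first), -6.32 and -4.85 (outer, first), -6.06 and -5.43 (inner, second) and -6.64 and -5.41 (outer, second), so that its groups overlapped at both samplings. Its part in the MHC_II values, like that of trypsin, was not tested.

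The comparison of sites asks whether livers in the inner and outer harbour differed at each sampling. At the first sampling the mean level of MHC_II probe 425 was -9.68 ± 2.47 (SD, n = 6) in the inner and -4.12 ± 1.53 (SD, n = 6) in the outer harbour. The difference of these means, -5.55 ± 1.64 (SE), passed limma's moderated test with an adjusted p of 0.0322. With normexp background correction the difference was -1.67. That setting also adds an offset of 50 to every signal, which by itself narrows log differences of dim probes. Probe 426 passed as well (-5.18 ± 1.56, adjusted p = 0.0354 by limma), while probe 427 had -4.56 ± 1.63 (adjusted p = 0.0558) and probe 428 -3.93 ± 1.66 (adjusted p = 0.113). Of the 7 probes of the 3 genes that were tested, 3 were called, all lower in the inner harbour, where 14.5% of all 476 tested probes were called in either direction, 9.24% lower and 5.25% higher. Those calls numbered 44 lower and 25 higher, and 5 lower and 32 higher when the percentile was taken over the probes detected on all arrays. With that scaling, and with normexp, 0 of the 7 probes were called. Under normexp 29 of all 476 tested probes were called. With the mean over its 4 probes MHC_II had an adjusted p of 0.0505 (limma). The model shares 1 spread over groups whose own SDs of MHC_II ran from 1.53 to 4.27. In an exact permutation test (924 relabelings, two-sided) probe 425 had p = 0.00433 before adjustment and 0.121 after adjustment over all tested probes, and 0 of 476 probes passed it. Without inner fish 2, 3 or 7 or outer fish 3 or 4 the adjusted p by limma was 0.0525, 0.0597, 0.0548, 0.0544 or 0.0653, and the differences stayed between -6.54 and -5.12 whichever fish was left out.

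At the second sampling the difference of MHC_II was 0.67 ± 1.64 (SE, 95% interval -2.71 to 4.06) and did not pass (adjusted p = 0.939 by limma). Detection was 4 of 6 fish at each site, and the others lay at the floor. The difference and its interval therefore depend on where the floor lies. The interval is wide enough to hold a change of several log2 units either way. Within slides, with 2 fish per group, the difference was -4.25, -2.24 and 8.51, and at the first sampling it was -5.36, -7.67 and -3.63. None of the 7 tested probes of the 3 genes was called at the second sampling, where 12.8% of all tested probes were, and 0 of the 7 had an unadjusted p under 0.05 by limma, against 20.2% of all.

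From the first to the second sampling MHC_II had a higher mean in the inner harbour and a lower one in the outer harbour, and neither change passed. The inner difference, sized by the floor as above, was 4.13 ± 1.64 (SE, adjusted p = 0.0704 by limma) and the outer difference was -2.10 ± 1.64 (95% interval -5.49 to 1.29, adjusted p = 0.46). The outer difference includes outer fish 6 and 7 of the second sampling, which lay at the floor. Its size and interval therefore depend on the floor too. Where detected, the outer fish had a median signal of 139.4 at the first and 135.8 at the second sampling. Calls over the 7 probes were 0 in the inner harbour, against 25.4% of all tested probes, and 0 in the outer harbour, against 16.6%. All 4 MHC_II probes had an unadjusted p under 0.05 in the inner harbour, as did 38.2% of all tested probes, and 0 of the 7 in the outer harbour, against 27.3%. How far the site difference changed with sampling was tested as an interaction, which gave 6.23 ± 2.32 (SE, adjusted p = 0.0781 by limma) with the same limit on its size. No probe of the 3 genes was called in it, against 12.2% of all tested probes, and the 4 MHC_II probes had an unadjusted p under 0.05, as did 30.3% of all. Without inner fish 8 of the first sampling the inner difference was 5.11 with an adjusted p of 0.0242, and without inner fish 2 or 4 of the second it was 5.15 or 5.18 with 0.0217 or 0.0208 (limma). The interaction had an adjusted p of 0.0434, 0.0439 or 0.0341 without the same 3 fish.

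**Figure D2:**
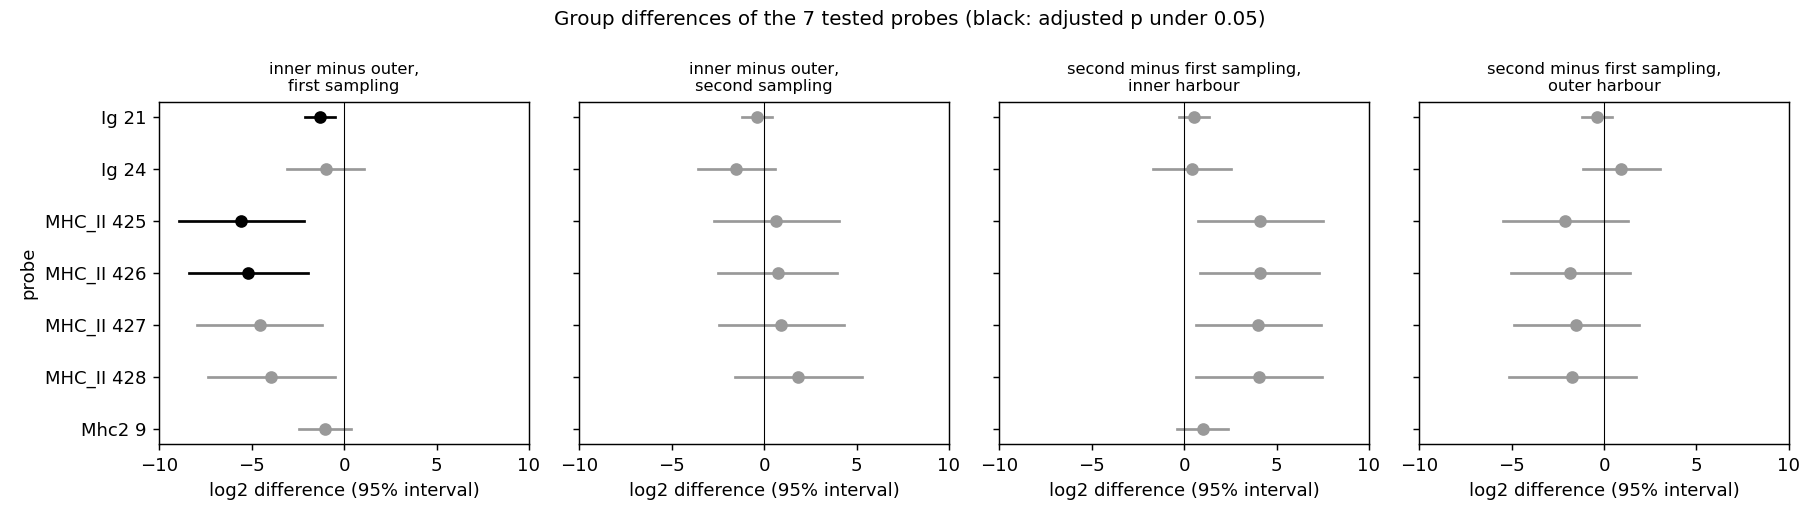
Log2 difference of group means (point) with its 95% interval (line) for the 7 tested probes in 4 comparisons of groups of 6 fish; Mhc2 is left out where a group has no fish above background, and MHC_II differences with the inner fish of the first sampling include 5 fish at the floor; black marks an adjusted p under 0.05 (limma). In each group of the second sampling MHC_II probe 425 was above background in 4 of 6 fish, and the others lay at the floor. The 3 black points, immunoglobulin 21 and MHC_II 425 and 426, lie in the panel of sites at the first sampling.

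The overlapping MHC_II probes did not keep 1 ratio from fish to fish. Moving the probe 4 bases, from 425 to 428, left the signal as bright in some fish and took most of it in others. The percentage itself has no meaning as a level, since probes bind with unequal strength, and only its change from fish to fish is described. At the first sampling probe 428 had 51.6% of the signal of probe 425 in inner fish 8. In outer fish 1, 2, 3, 4, 5 and 8 it had 6.17%, 20.5%, 43.3%, 102%, 20.5% and 56.6%. At the second sampling it had 35.3%, 107%, 121% and 86.7% in inner fish 1, 3, 5 and 7 and 19.5%, 17.8%, 12% and 76.4% in outer fish 2, 3, 4 and 5. In outer fish 1 of the first and outer fish 4 of the second sampling probe 428 was itself not well above background, so that their percentages are upper bounds. The other 13 fish had both probes well above background and still spanned 17.8% to 121%. The lowest percentages, 6.17% and 12%, came from fish with probe 425 signals of 30.9 and 52.9, and the highest, 121%, 107% and 102%, from fish with 845, 249 and 990.5. Over the 13 fish the log2 ratio of probe 428 to 425 had r = 0.68 with the log2 signal of probe 425, which enters both. Fish of like signal still differed, with 19.5%, 51.6% and 20.5% at probe 425 signals of 99.0, 100.6 and 101.2. The cause was not tested.

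**Figure D3:**
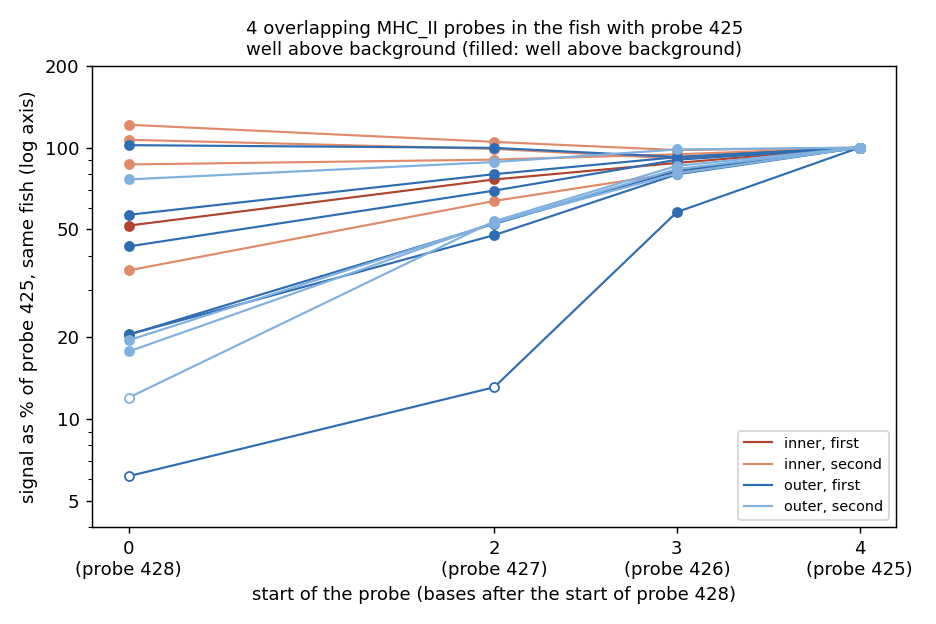
Signal of the 4 overlapping MHC_II probes as a percentage of probe 425 in the same fish (log axis), against the start of the probe in bases after the start of probe 428, for the 15 fish with probe 425 well above background; filled points are well above background. Lines run from 6.17% to 121% at probe 428 although all 4 probes share 51 bases.

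Mhc2, the other class II name, was dim throughout, on a probe whose strand was not tested. Of 6 fish each, 2 inner and 3 outer fish had it detected at the first sampling, and 2 inner and 0 outer fish at the second. Its signals where detected were 6.73 and 27.0 in inner fish 2 and 5, 15.7, 27.1 and 26.5 in outer fish 1, 4 and 5, and 16.9 and 29.6 in inner fish 5 and 7 of the second sampling. All other fish had 1.76 to 9.43. The highest of these, outer fish 3 of the second sampling, had the flag on 4 of 9 spots, or on 5 of 10 with the outlier spot counted, which would make it detected. The arrays of that group had 371 to 455 probes detected in all, against 424 to 470 in the inner fish of that sampling. At the first sampling the arrays had 443 to 484 (inner) and 457 to 482 (outer). The part of these array differences in the Mhc2 counts was not tested. The groups overlapped in every comparison and none passed. The site difference was -1.04 ± 0.67 (SE, adjusted p = 0.340 by limma) at the first sampling, and the sampling difference was 1.01 ± 0.67 (adjusted p = 0.314) in the inner harbour. The outer fish of the second sampling, none of them detected, had a mean level of -9.04, against -8.26 in the inner fish of that sampling and -8.23 in the outer fish of the first. No difference is given against them, and limma's adjusted p was 0.634 between sites, 0.491 between samplings and 0.208 for the interaction.

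MHC_II and Mhc2 were both detected in 5 fish, MHC_II alone in 10, Mhc2 alone in 2 and neither in 7. The 2 fish with Mhc2 alone were inner fish 2 and 5 of the first sampling, where MHC_II had 1.21 and 1.6. The outer fish of the second sampling showed the opposite, with MHC_II in 4 and Mhc2 in 0 of 6, on arrays with 371 to 455 probes detected. By these counts the 2 names were detected in different fish as well as in the same ones. Inner fish 2 of the first sampling had the Mhc2 flag on 7 of 10 spots. Its signal of 6.73 was under that of the brightest undetected fish (9.43). These counts describe the probes. Whether the Mhc2 probe is on the strand of the MHC_II probes, and whether the names stand for separate transcripts, was not tested.

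Immunoglobulin probe 21, at the joining end of the stretch, was well above background in 24 of 24 fish. At the first sampling its lowest, median and highest levels were -6.51, -5.30 and -4.01 in the inner harbour and -4.49, -4.25 and -2.72 in the outer harbour. Inner fish 3, at -4.01, lay inside the outer range, and the other 5 inner fish lay below all outer fish. At the second sampling they were -5.04, -4.80 and -4.25 in the inner and -5.07, -4.58 and -3.19 in the outer harbour. There the outer range held the whole inner range, and the inner fish were the most alike of the 4 groups, with an SD of 0.29 against 0.95 (inner, first), 0.67 (outer, first) and 0.76 (outer, second).

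The immunoglobulin difference between sites at the first sampling was -1.29 ± 0.39 (SE, n = 6 and 6, 95% interval -2.10 to -0.48) with an adjusted p of 0.0364 by limma. The exact permutation test gave p = 0.0195 before and 0.150 after adjustment. With the mean over all 4 probes the difference was -0.85 with an adjusted p of 0.225 by limma, so that the call rests on probe 21. That mean includes probes 22 and 23, which were too dim to be tested (detected in 1 and 3 of 24 fish). The call was lost without inner fish 2, 5, 7 or 8 (adjusted p of 0.0572, 0.0631, 0.0548 or 0.0850 by limma) and without outer fish 2 or 5 (0.0526 or 0.0705), with differences from -1.55 to -1.03 over all fish left out. Within the 3 slides the difference was -0.60, -0.90 and -2.37. At the second sampling it was -0.36 ± 0.39 (95% interval -1.18 to 0.45, adjusted p = 0.745 by limma). The level differed by 0.55 ± 0.39 between samplings in the inner harbour (adjusted p = 0.349) and by -0.37 ± 0.39 in the outer harbour (adjusted p = 0.577). The interaction was 0.92 ± 0.55 (95% interval -0.22 to 2.07, adjusted p = 0.309), so a site difference confined to the first sampling was not shown.

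Probe 24, at the variable end of the same stretch, gave another picture. Detection was 2 of 6 inner and 5 of 6 outer fish at the first sampling, and 2 of 6 and 3 of 6 at the second. At the second sampling outer fish 4 and 5 were not detected at signals of 19.99 and 12.8, while outer fish 7 was detected at 7.10. The array of outer fish 4 had 371 probes detected, the fewest of all. The part of the arrays in these counts was not tested. The lowest, median and highest signals of probe 24 were 3.21, 6.58 and 20.2 (inner, first), 5.98, 18.2 and 23.1 (outer, first), 2.42, 6.70 and 110 (inner, second) and 7.10, 12.5 and 1540 (outer, second). A single fish, outer fish 2 of the second sampling, reached 1540, where the next highest fish of its group had 19.99. The 110 came from inner fish 5 of the second sampling, whose next highest neighbour had 12.8. The site differences of probe 24 were -0.999 ± 1.01 (SE, adjusted p = 0.544 by limma) at the first and -1.50 ± 1.01 (adjusted p = 0.494) at the second sampling, and the groups overlapped. Probe 24 ranked 10 of 476 tested probes by the range of its levels (9.37 log2 units), while probe 21 ranked 80 (3.79).

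The outer fish with 1540 on probe 24 was set apart on the neighbouring probe too. Probe 23 was well above background in 3 fish, with 43.5 in that fish, 15.7 in inner fish 3 and 14.2 in outer fish 1 of the first sampling. Probe 22, in the middle of the stretch, was well above background in 1 fish, outer fish 6 of the second sampling, at 6.70, and lay at 1.815 in the fish with 1540. Probe 21 had 216 in the fish with 1540, within the range of 29.7 to 321 over all fish. Probes 22 and 23 were above background on too few arrays to be tested. The inner fish with 110 on probe 24 had 4.64 on probe 23, 3.35 on probe 22 and 112 on probe 21. The order of the 4 probes by signal thus differed between fish, and the results above use single probes.

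**Figure D4:**
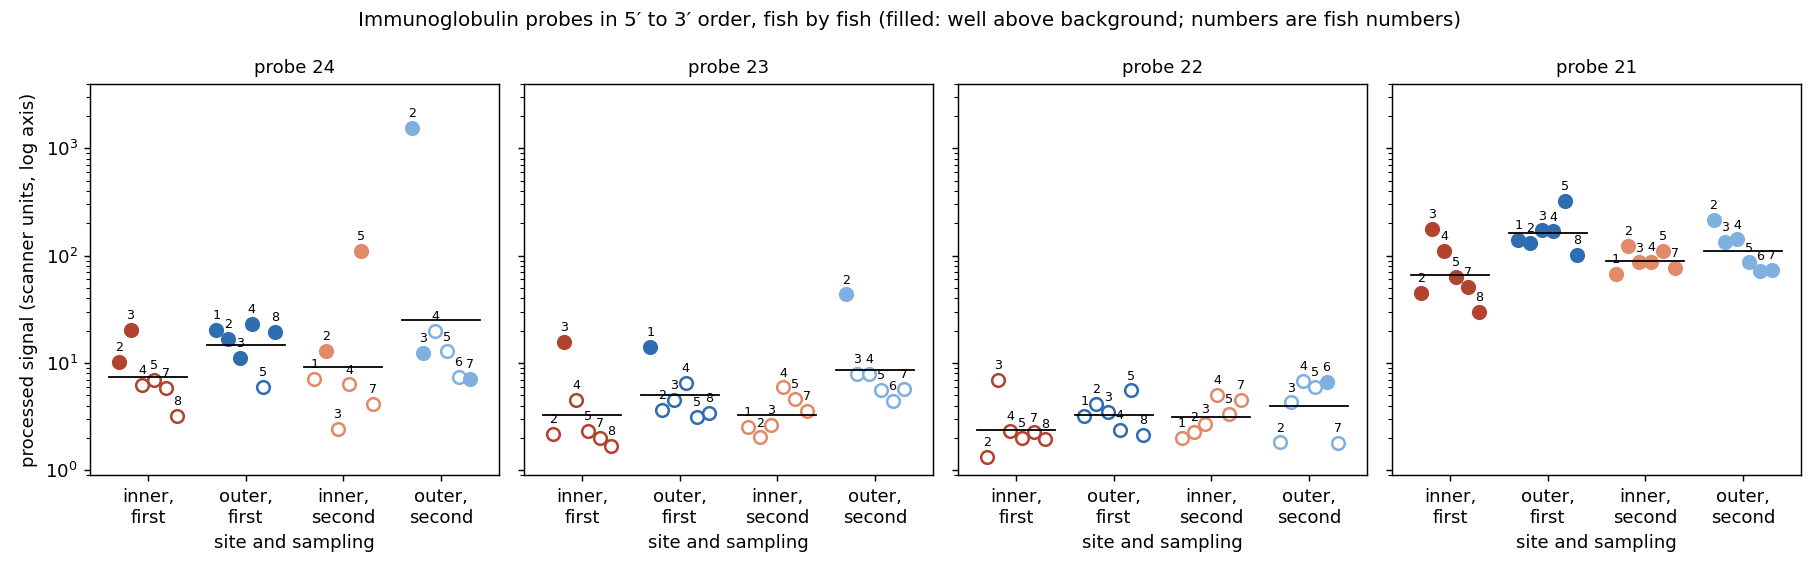
Processed signal (scanner units, log axis) of the 4 immunoglobulin probes in 5′ to 3′ order in each of 6 fish per site and sampling, with fish numbers; filled points are well above background and bars are means of the log signals. Probe 21 is filled in all 24 fish, and outer fish 2 of the second sampling stands at 1540 on probe 24 and at 43.5 on probe 23.

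Immunoglobulin and MHC_II showed no relation that passed a test in the fish that had both. Over the 15 fish with probes 21 and 425 well above background Pearson's r was 0.04 (permutation p = 0.879) and Spearman's rho -0.08 (permutation p = 0.782). Without the 2 fish farthest from the median r was -0.18, and over deviations from the group means it was -0.12 (permutation p = 0.668). No r of MHC_II is given over all 24 fish, because its levels fall into separate clusters. Immunoglobulin and Mhc2 had r = 0.58 over 7 fish (permutation p = 0.164, adjusted 0.329 over 2 relations), rho = 0.32 (permutation p = 0.496) and r = 0.42 without the 2 farthest. MHC_II and Mhc2 were both detected in 5 fish, too few for a correlation. Over all 24 fish, floor values included, the 3 relations between the genes were all positive. Only that of MHC_II with Mhc2 had an adjusted permutation p under 0.05 (0.0484 for Pearson's r and 0.0228 for Spearman's rho). Over deviations from the group means the adjusted permutation p of this pair was 0.159 and 0.176. Because of the clusters these p-values do not show a graded relation.

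The genes most like the immunoglobulin over the 24 arrays, by Pearson's r of levels, were Mugil_cephalusP0 (0.72), Fibrinogen_G (0.61), Prothrombin (0.61), Liza_aurata_S11r (0.59) and Beta-Fibrinogen (0.56). Fibrinogen and prothrombin are clotting proteins that hepatocytes secrete. With the group means taken out the same 5 had r of 0.73, 0.58, 0.58, 0.70 and 0.54. The highest of these belong to Mugil_cephalusP0 and Liza_aurata_S11r, which are not clotting genes by name. No such genes are named for MHC_II, because of its clusters. The points of each r share the array and its scaling.

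Other genes of immunity on the array were looked up by name. Of 8 tested genes of acute phase, complement and plasma defence, which the liver itself makes, 2 fell and 0 rose in the inner against the outer harbour at the first sampling. They were a-2_macroglobulin, a protease trap of plasma (-0.98 ± 0.18, adjusted p = 0.00106), and Transferrin, the iron carrier (-0.94 ± 0.26, adjusted p = 0.0249 by limma). The median difference of the list was -0.60, against -0.07 over 134 tested genes, of which 10 fell and 7 rose. The 2 genes were called higher at the second than at the first sampling in the inner harbour, by 1.07 ± 0.18 (adjusted p = 6.1e-05) and 0.78 ± 0.26 (adjusted p = 0.0298 by limma), where 23 of the 134 genes were called higher and 10 lower. In that comparison C3 did not pass on its brightest probe (adjusted p = 0.486 by limma), although 2 of its 4 probes were called. Haptoglobin, which binds free hemoglobin, had -1.13 ± 0.45 between sites at the first sampling (adjusted p = 0.0878). The calls between sites at the first sampling, here and in the next lists, are those of the main scaling. With the percentile over the probes detected on all arrays, 5 instead of 44 of all tested probes were called lower there. By the exact permutation test 0 of the 476 tested probes passed, the probes of these genes included.

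Of 5 tested genes of signalling and inflammation 1 fell between sites at the first sampling, Inf-kappa-ba, spelled like the inhibitor that holds NF-kappa-B in the cytoplasm (-0.94 ± 0.21, adjusted p = 0.0082 by limma), and the list's median was -0.58. Its other genes were INFkappaB?, Leukotriene_A4_hydrolase, MxP and TNF?, and none of them passed on its brightest probe in any comparison, although 3 of 4 probes of INFkappaB? and 2 of 4 of Leukotriene_A4_hydrolase were called between sites at the first sampling, and 1 of Leukotriene_A4_hydrolase between samplings in the outer harbour. Of 3 tested genes of antigen processing and lymphoid cells (Cathepsin_L, RAG1 and proteasome) 0 passed between sites at either sampling. Cathepsin_L, a lysosomal protease that also cuts proteins for class II loading in mammals, fell from the first to the second sampling at both sites, by 2.28 ± 0.39 on the log2 scale in the inner (adjusted p = 1.03e-04) and by 1.42 ± 0.39 in the outer harbour (adjusted p = 0.0127 by limma), where 10 and 18 of the 134 genes fell. MHC_II and the immunoglobulin had no call between samplings at either site. Mugil_cephalusCox2, found by the name search, was left out as a mitochondrial gene.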

How the data were processed

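Liver RNA of 24 samples was labelled with Cy3 and put on one-colour arrays. The deposited intensity of each spot had its background subtracted and trends within the array removed with Feature Extraction version 9.5.3.1 (Agilent), per the file headers. A table of log2 values deposited by the authors matched its own array best in 24 of 24 columns (lowest r 0.992, column medians 6.77 to 6.82). Its scale is thus log2, while the sources used here give neither its centring nor its normalization. It served as an alternative.

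Outlier spots (40 to 125 per array) were left out, log2 signals were averaged over the spots of a probe, and each array was scaled by subtracting its 75th percentile. A probe was tested where it was well above background on at least 6 of 24 arrays (476 of 638 probes). This kept 7 of the 9 probes described. One limma model (limma 3.58.1, R 4.3.3) with a coefficient per group used all 24 arrays, with Benjamini-Hochberg adjustment over all tested probes of a comparison. Exact permutation tests and 100000 resamples for relations used SciPy 1.17.1. A gene is represented by its probe with the highest mean level. The step was checked on simulated data.

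The genes described are all those the name rule finds, with the 5 genes most like the immunoglobulin in pattern (those of MHC_II are left out, as its levels fall into separate clusters) and the immune gene names of 3 lists. Members and lists were chosen with earlier results of these data known. The relations had been planned over all 24 arrays and are given over fish with both probes detected for the same reason. Alternatives covered scaling, background correction, the filter on dim probes, slide, sample number, test and each sample left out. The number of arrays limits the precision.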

Additional observations from a re-analysis of the deposited data

Results flagged for a closer look

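Of 36 groups of 6 fish examined over the 9 probes, 9 held a fish set apart from the other 5 by a gap larger than Dixon's 95% limit, where chance gives about 1 in 20. That rate is for independent groups of normal values. These groups share fish and overlapping probes, and several mix values at the floor with detected ones. The rate therefore does not tell how many such groups to expect here. Inner fish 8 of the first sampling was set apart on all 4 overlapping MHC_II probes, at levels of -4.75 (probe 425), -4.94 (probe 426), -5.14 (probe 427) and -5.70 (probe 428), and these 4 count 1 fish at 1 site of a transcript. On immunoglobulin probe 24 outer fish 2 of the second sampling stood at -0.35, next to -7.07, and inner fish 5 of the second sampling at -4.66, next to -7.92. On immunoglobulin probe 23 outer fish 2 of the second sampling stood at -5.50 and outer fish 1 of the first at -7.72. On immunoglobulin probe 21 outer fish 5 of the first sampling stood at -2.72, next to -3.96.

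Among the probes left out of the tests for dimness, immunoglobulin probe 22 was well above background in 1 fish and probe 23 in 3 fish.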

How the results depend on the processing

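At the first sampling 3 of the 7 tested probes were called between sites. The count was 0 with the percentile over the probes detected on all arrays, 0 with normexp background correction, 1 with array weights and 0 by the exact permutation test, and it ran from 0 to 4 with 1 fish left out. In the first 4 of these settings 37, 29, 82 and 0 of all 476 tested probes were called. The count of the 7 was 0 without inner fish 2 or 7, 1 without inner fish 3 or 5 or outer fish 3 or 4, and 2 without outer fish 2 or 5. MHC_II stayed negative there (-1.67 with normexp, -5.30 with the percentile over the probes detected on all arrays). The adjusted p of the immunoglobulin was 0.0927 with the array median, 0.0505 with quantile normalization and 0.1003 in a fit of the compared groups alone. In the interaction the count was 2 with array weights instead of 0 (93 of all 476 tested probes) and 0 to 2 with 1 fish left out (47 to 73 of all). Between samplings in the inner harbour it was 0 to 4 with 1 fish left out (4 without inner fish 8 of the first or 2 or 4 of the second), with 94 to 125 of all. At the second sampling and between samplings in the outer harbour it was 0 in all fits run. Of all tested probes, 31 to 67 and 60 to 80 were called there with 1 fish left out, and 88 and 122 with spike-in scaling. The r between immunoglobulin and MHC_II, in scalings added after seeing the data, was -0.119 with the array median, -0.00524 with the percentile over the probes detected on all arrays, -0.134 with quantile normalization and -0.142 with the deposited log2 values. With the mean over all its probes, the dim probes 22 and 23 included, the immunoglobulin had -0.85 (adjusted p = 0.225 by limma) at the first sampling. MHC_II had -4.80 (adjusted p = 0.0505 by limma) there with the mean over its own probes. On such a mean the immunoglobulin turned sign between samplings in the outer harbour (0.48) and in the interaction (-0.0713). MHC_II at the second sampling ran from -0.20 to 1.725 with 1 fish left out, below 0 without inner fish 5 or 7 or outer fish 6 or 7. With the sample number as a replicate block the counts were 3, 0, 0, 0 and 0, and no call of the 7 probes changed. Of all tested probes 51, 55, 119, 77 and 57 were called with that block. Deviations of same-numbered fish had a mean r of 0.00754 (19 pairs, r from -0.282 to 0.39), against 0.000194 for other pairs. Between sites at the first sampling the means were 0.105 and -0.0179. Such values cannot show whether the numbers pair fish. With slide as a block the first count was 3, with 63 of all 476 tested probes called. Over all tested probes the calls at the first sampling were 69, against 35 with the array median, 19 with spike-in scaling, 14 with only the compared groups and 33 to 80 with 1 fish left out. Other scalings moved the median of all probes by up to 0.25 at the first sampling and -0.41 in the outer harbour. The interaction was not run by permutation or on compared groups alone, and within-slide values have no test. The cause of these changes was not tested. What limits depth is the floor: MHC_II in 9 fish has only an upper bound. Counting outlier spots, an alternative added after seeing the data, made Mhc2 detected in 1 instead of 0 outer fish of the second sampling. Where every spot had to carry the flag, Mhc2 was not detected in inner fish 2 of the first sampling (7 of 10 spots). Nor was it in inner fish 5 of the second (8 of 10 spots).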
